A study of Mus musculus with 4 samples.

Results

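Signalling proteins downstream of the high-affinity IgE receptor and of antigen receptors were measured as RNA in mouse BA/F3 cells with and without the human ETV6-RUNX1 (TEL-AML1) fusion gene. The set consists of 10 genes chosen by name: the kinases Lyn, Syk, Fyn and Btk, the adaptors Lat, Lcp2 and Gab2, the phospholipases Plcg1 and Plcg2, and the lipid phosphatase Inpp5d. Every probe set annotated with exactly 1 of these symbols was kept. This gave 19 of the 45037 non-control probe sets of the array, for 9 of the 18193 genes with such a probe set. Lyn was not analysed here. Of the 19 probe sets, 13 passed the filter, a mean log2 value of at least 4 over the libraries, and every one of the 9 genes had at least 1 that passed.

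When antigen crosslinks these receptors, SRC family kinases such as Fyn phosphorylate the tyrosine-based activation motifs of the receptor chains, and Syk binds to them. At the IgE receptor Syk then phosphorylates the adaptors Lat and Lcp2 (SLP-76), which assemble a complex with BTK and phospholipase C gamma. The phospholipase releases the second messengers that mobilise calcium and activate protein kinase C. Gab2 carries a parallel branch to phosphatidylinositol 3-kinase, and Inpp5d (SHIP1) removes a phosphate from the product of that kinase and so restrains the response. In mast cells and basophils this pathway leads to degranulation. In B cells some of its members, among them Syk, BTK and phospholipase C gamma, carry the signal of the B cell receptor.

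BA/F3 is an established, interleukin 3 dependent mouse line often taken to stand for early B cells. Per the protocols, the array was hybridised with total RNA from 4 libraries. By title, source name and genotype, 2 libraries came from cells carrying the inducible fusion (hsa ETV6-RUNX1 +) and 2 from control cells (hsa ETV6-RUNX1 -); both lines were given mifepristone, the inducer, at 32.5 pM for 16 h, so the drug is shared by all groups. The description field, however, names the fusion-titled replicate 1 library a control and the control-titled replicate 1 library a fusion sample, whereas for both replicate 2 libraries title and description match. The differences of the tested member probe sets are therefore given by title and by description. For single genes of the other lists mostly the difference by description is printed. Whether a line is 1 clone is not given in the sources used here. The series design text, which calls the controls empty vector lines, speaks of promoter immunoprecipitation, and all 4 titles carry the term ChIP. The protocols describe RNA, and the values were treated as RNA levels. Nothing in the labels says that the replicates were separate cultures, so p-values measure only the spread between these libraries.

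The labelled cell type was set against its markers. Of 11 measured B lineage markers, 7 (Cd22, Dntt, Ebf1, Pax5, Rag1, Rag2 and Vpreb1) lay within 0.5 of the lowest value of the table, 2.23, in all 4 libraries, and only Cd79b passed the filter. All 10 measured T lineage and all 7 fibroblast markers lay at that floor too, as did 8 of 10 neutrophil, 3 of 8 macrophage and monocyte and 3 of 7 erythroid and megakaryocyte markers. Of 12 measured mast cell and basophil markers 6 passed the filter and 4 (Kit, Mcpt4, Tpsab1 and Tpsb2) lay at the floor. Over the 17720 tested probe sets the 4 libraries correlated with each other at a Pearson r of 0.931 to 0.972, across probe sets and not across replicates.

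The promoters shown here are those of the 3 members that separated the libraries most clearly by description, Lat, Lcp2 and Plcg1, and of Btk, which separated them by replicate number. Each is the stretch of 250 bases before the start site, 5′ to 3′ on the strand of the gene, from RefSeq (GRCm38.p6). The Btk window lies inside the annotated gene, which ends at 134583628, and the Lat window overlaps its gene, which ends at 126369705. For these genes the start site used is therefore not the outermost one. Capitals mark GGAA, the core recognised by ETS factors such as ETV6, or its complement TTCC on the other strand.
Lat, GRCm38.p6 chr7:126369569-126369818, minus strand: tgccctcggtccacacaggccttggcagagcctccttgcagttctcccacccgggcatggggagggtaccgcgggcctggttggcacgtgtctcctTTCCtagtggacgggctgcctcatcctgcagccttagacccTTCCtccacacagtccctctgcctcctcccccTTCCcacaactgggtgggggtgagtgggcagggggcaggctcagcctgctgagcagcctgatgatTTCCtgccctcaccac
Lcp2, GRCm38.p6 chr11:34046678-34046927, plus strand: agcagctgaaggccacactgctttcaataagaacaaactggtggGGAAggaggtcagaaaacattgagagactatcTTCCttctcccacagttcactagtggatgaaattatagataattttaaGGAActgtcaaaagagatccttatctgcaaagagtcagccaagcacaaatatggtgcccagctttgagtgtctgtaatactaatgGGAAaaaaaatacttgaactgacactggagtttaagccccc
Plcg1, GRCm38.p6 chr2:160731060-160731309, plus strand: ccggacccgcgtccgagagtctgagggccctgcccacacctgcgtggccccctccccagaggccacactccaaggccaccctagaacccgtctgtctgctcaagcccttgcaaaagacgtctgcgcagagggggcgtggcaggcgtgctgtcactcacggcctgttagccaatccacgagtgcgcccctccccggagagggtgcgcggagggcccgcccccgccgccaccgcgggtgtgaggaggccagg
Btk, GRCm38.p6 chrX:134583141-134583390, minus strand: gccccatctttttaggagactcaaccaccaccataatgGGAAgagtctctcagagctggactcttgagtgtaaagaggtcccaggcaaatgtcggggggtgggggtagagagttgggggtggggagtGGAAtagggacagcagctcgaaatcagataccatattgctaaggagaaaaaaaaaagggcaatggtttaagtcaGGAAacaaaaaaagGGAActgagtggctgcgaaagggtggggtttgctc
The Lat, Lcp2 and Btk windows held 4 GGAA cores each on both strands together and the Plcg1 window 0. Over 8 members with an entry there were 9 such windows, and 6 held the core, against 93.4% of all 32851 promoter windows of the same length. The RUNX motif, searched as TGTGGT or TGCGGT on both strands, was in 2 of the 9 windows, against 18.6% of all, and neither match overlapped a GGAA core. These were the Fyn window, with a TGCGGT on the reverse strand from 211 to 206 bases before the start site, and 1 of the 2 Syk windows, with the same letters from 107 to 102 bases before it. A match is a description of letters, and binding was not measured here.

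The values of the 13 member probe sets that passed the filter are plotted by library.

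**Figure D1:**
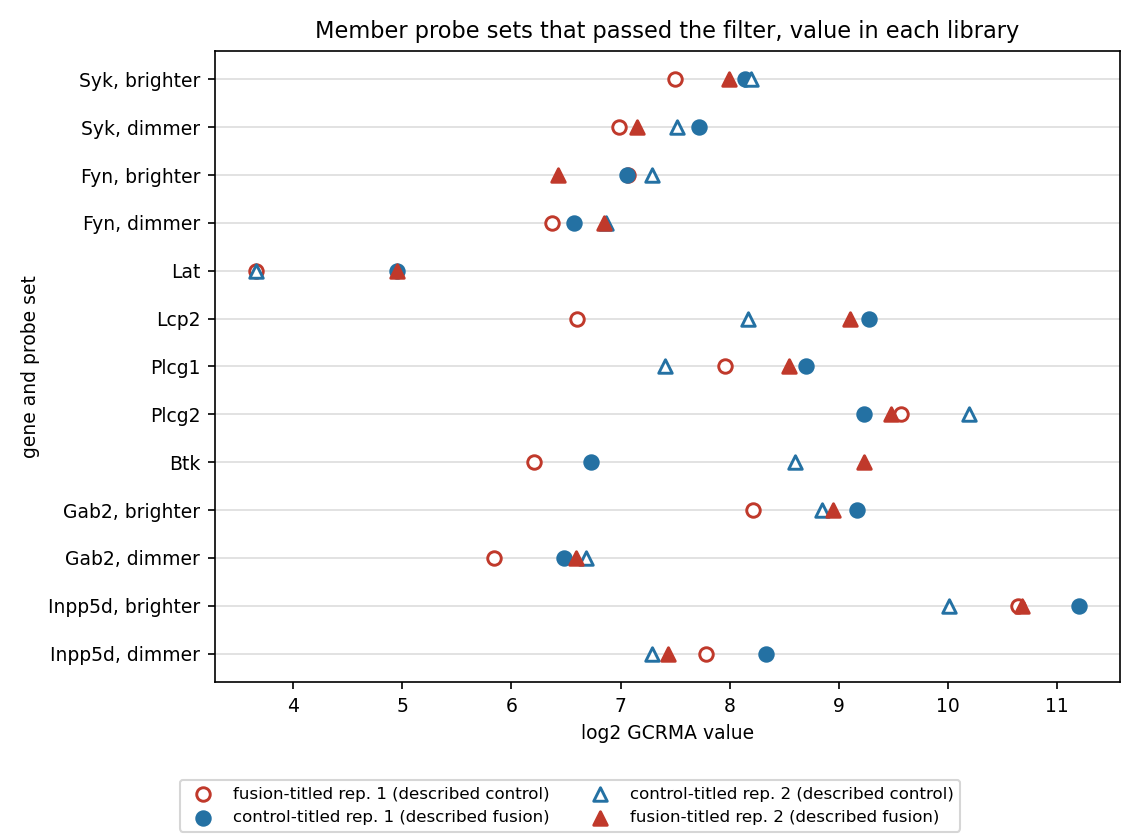
Log2 GCRMA value (horizontal axis) of each member probe set that passed the filter (vertical axis) in each of the 4 libraries. Colour gives the title (red fusion, blue control), filling the description (filled fusion, open control) and shape the replicate number (circle 1, triangle 2). For Lat, Lcp2 and Plcg1 both filled points lie above both open points, for Btk both triangles lie above both circles, and for Syk both red points lie below both blue points.

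Among the kinases, Syk was the member that separated the libraries by title. Its brighter probe set (1418261_at) read 7.499 and 7.998 in the fusion-titled replicates 1 and 2, and 8.14 and 8.20 in the control-titled replicates 1 and 2. Its other tested probe set (1418262_at) read 6.99 and 7.15 against 7.72 and 7.52. Both fusion-titled libraries were thus below both control-titled libraries at each, by 0.42 on average at the first (log2 difference -0.42, SE 0.30, 95% interval -1.28 to 0.45) and by 0.55 at the second (-0.55, SE 0.26, interval -1.28 to 0.18). Groups by title failed to overlap at 10.7% of all tested probe sets. Without the fusion-titled replicate 1 library the difference at the brighter probe set was -0.17, and without the fusion-titled replicate 2 library -0.67. Neither probe set passed in limma (adjusted p = 1 for both), and the 2 probe sets read the same transcript, so they are not independent. By description Syk differed by 0.22 (SE 0.30) and 0.18 (SE 0.33), with overlapping groups. The other 2 Syk probe sets lay near the floor, between 2.32 and 3.17.

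Fyn, a SRC family kinase that acts at the receptor, gave no common pattern by description at its 2 probe sets. By title both were lower on average in fusion, with overlapping groups. The title difference was -0.43 (SE 0.34) at the brighter and -0.11 (SE 0.31) at the dimmer. The brighter (1417558_at) read 7.07 and 6.43 in the fusion-titled replicates 1 and 2, and 7.06 and 7.29 in the control-titled ones. Its description groups did not overlap, as at 50.4% of all tested probe sets, but the gap between the nearest libraries was only 0.00956, and the difference by description was -0.43 (SE 0.30, limma adjusted p = 0.49). The dimmer (1448765_at) read 6.37, 6.85, 6.57 and 6.87 in the same order and differed by 0.0875 (SE 0.27) by description, in the opposite direction.

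Btk, the TEC family kinase that activates phospholipase C gamma, had the widest range of all member probe sets, 3.02. It read 6.21 in the fusion-titled and 6.73 in the control-titled replicate 1 library, and 9.23 and 8.60 in the replicate 2 libraries. The 2 replicate 2 libraries were both higher than the 2 replicate 1 libraries, by 2.44 on average (5.44-fold), and 94.7% of the variance of Btk lay along this split. A split of at least 2-fold by replicate number occurred at 6.39% of tested probe sets. No test was made of this split, since it is none of the study's conditions. In each replicate pair the fusion and control libraries lay much closer, at 0.52 in the replicate 1 pair and 0.63 in the replicate 2 pair. Grouped by title Btk differed by 0.0586 (SE 1.32, interval -3.71 to 3.83) and by description by 0.57 (SE 1.27, interval -3.03 to 4.18). Differences inside those intervals were not detectable with these libraries.

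The genes whose profile over the 4 libraries lay nearest to that of Btk, by Euclidean distance between profiles centred on their own mean, were Ss18 at 0.18, Numa1 at 0.19, Agap3 at 0.31, Poc1a at 0.34 and Clic1 at 0.38. With 4 libraries such likeness is a description only. Clic1, for example, read 10.1 and 10.8 in the fusion-titled and control-titled replicate 1 libraries and 12.9 and 12.2 in the replicate 2 libraries.

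Of the adaptors, Lat followed the description field. Lat, the membrane scaffold that gathers the signalling complex, read 4.95 in both libraries described as fusion and 3.66 in both described as control. The 2 libraries of each description pair differed by 0.00235 and 0.000552, and the pairs by 1.30 (2.45-fold; SE 0.15, 95% interval 0.86 to 1.73, limma adjusted p = 0.13), which did not pass. Lat had a mean of 4.31 and passed the filter at 4 only through the libraries described as fusion, so these values are descriptive only. Whether 3.66 is a floor of this probe set was not tested, so 2.45-fold may not be a measured fold change. Grouped by title the Lat difference was 0.00145 (SE 0.70). In the replicate 2 pair, the one for which the title and the description name the same conditions, the fusion library was higher by 1.30, with no replicate check.

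Lcp2, the cytosolic adaptor that binds Lat through a linker protein, showed the largest description difference of the members. It read 9.28 and 9.10 in the libraries described as fusion (control-titled replicate 1 and fusion-titled replicate 2) and 6.60 and 8.17 in those described as control (fusion-titled replicate 1 and control-titled replicate 2). Both libraries described as fusion were higher, but those described as control lay 1.56 apart. The difference was 1.81 (3.50-fold; SE 0.59, interval 0.12 to 3.49, limma adjusted p = 0.23) and did not pass. Without the fusion-titled replicate 1 library, the lowest of the 4, it was 1.02. By title Lcp2 differed by -0.87 (SE 1.03). Its second probe set fell below the filter, with 4.30 and 3.36 against 2.83 and 3.34.

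Gab2, the docking adaptor of the phosphatidylinositol 3-kinase branch, had smaller differences than Lat and Lcp2 by description. Its brightest probe set (1419829_a_at) read 9.17 and 8.95 in the libraries described as fusion and 8.22 and 8.84 in the other 2 libraries, which differ by 0.53 on average (SE 0.28, limma adjusted p = 0.40) without overlap. By title this probe set differed by -0.42 (SE 0.37), with overlapping groups. At the next probe set (1439786_at) the fusion-titled replicate 1 library was again the lowest, at 5.84 against 6.48 to 6.68 in the others. The groups overlapped there, with 0.27 (SE 0.35) by description and -0.36 (SE 0.37) by title. The third Gab2 probe set stood near the floor, between 2.57 and 2.65.

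The 2 phospholipase C gamma genes ran in opposite directions by description. Plcg1 read 8.70 and 8.55 in the libraries described as fusion and 7.96 and 7.41 in the other 2, so that it was higher by 0.94 (1.91-fold; SE 0.26, interval 0.19 to 1.68, limma adjusted p = 0.20). Plcg2, the paralogue that predominates in B cells, read 9.23 and 9.48 against 9.57 and 10.2, a difference of -0.53 (SE 0.28, interval -1.32 to 0.27, adjusted p = 0.39). At both genes the description groups did not overlap and neither difference passed; the contrast between the 2 genes was not tested. By title they differed by 0.20 (SE 0.57) and -0.19 (SE 0.42). The other 2 Plcg1 probe sets stood at the floor value in every library.

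Inpp5d, the inhibitory phosphatase of the set, was higher by description as well. Its brighter probe set (1418110_a_at) read 11.2 and 10.7 in the libraries described as fusion and 10.6 and 10.01 in those described as control. The gap between the nearest libraries of the groups was small, since the fusion-titled libraries read 10.64 and 10.68. The difference was 0.61 (SE 0.32, limma adjusted p = 0.39). The dimmer probe set (1424195_a_at) gave 0.34 (SE 0.41) with overlapping groups, and by title the pair of probe sets differed in sign, at 0.0582 (SE 0.47) and -0.20 (SE 0.47).

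**Figure D2:**
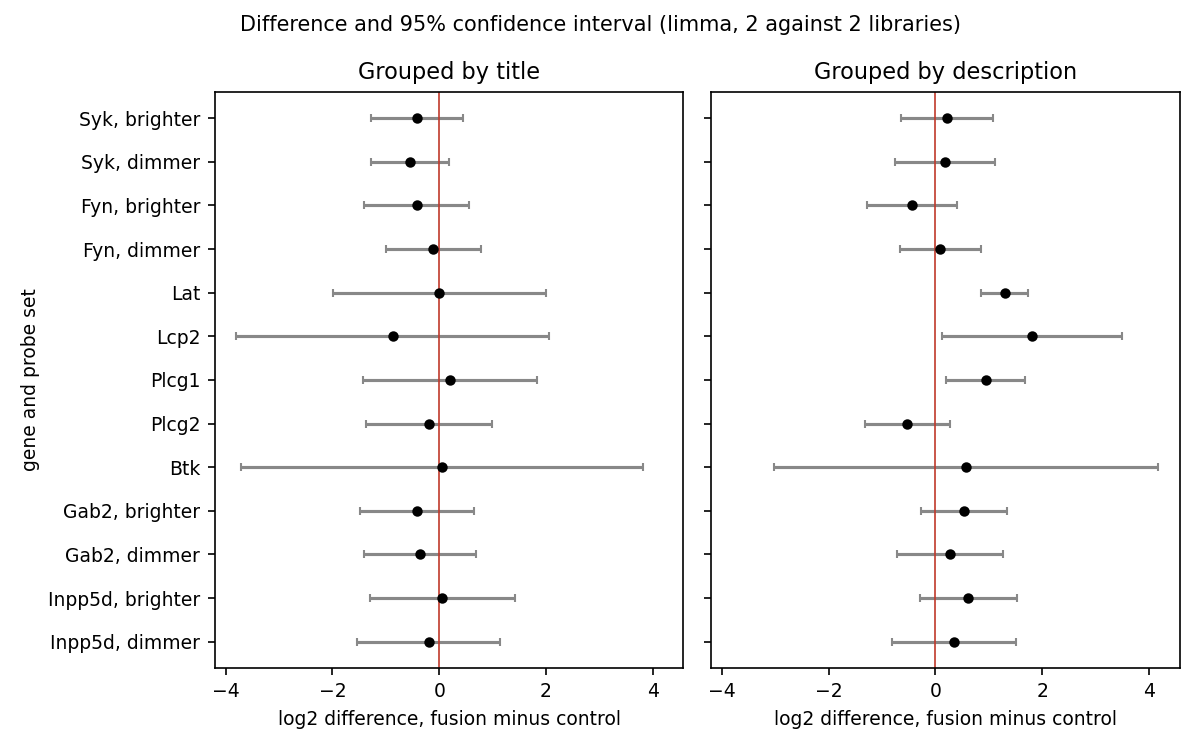
Log2 difference of fusion minus control (horizontal axis) for each member probe set that passed the filter (vertical axis), grouped by title (left) and by description (right). Points are differences of means of 2 against 2 libraries and bars are 95% confidence intervals from limma. By title every interval includes 0, and by description those of Lat, Lcp2 and Plcg1 lie above 0 before adjustment for the number of probe sets. Lat passed the filter only through the libraries described as fusion.

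Counted together, limma called 0 of the 13 member probe sets at an adjusted p of 0.05 by title and 0 by description, against 0% and 0.0113% of the 17720 probe sets tested. At an unadjusted p under 0.05 there were 0 by title and 3 by description, where 0.282% and 19.7% of all tested probe sets reached it. Among the 3 is Lat, which passed the filter only through the libraries described as fusion. Lat also enters the other counts by description given here, so its part in them is descriptive only. By title the groups did not overlap at 2 of 13 member probe sets, both of Syk and both lower in fusion, where 6.04% of all did so in that direction. By description they did not overlap at 7 of 13, with 5 higher and 2 lower in fusion, against 50.4% of all tested probe sets, 25.3% higher and 25.1% lower, so the share of the members is near the background. With the brightest probe set standing for each gene, 7 of 9 genes were higher by description, with a median difference of 0.57, against 51.5% of the 8892 genes tested and a median of 0.0124. By title 4 of 9 were higher, with a median of -0.19, against 46.2% and -0.0153. No chance test was made of these counts, because the genes were chosen with earlier results known.

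The 2 replicates disagreed on direction by title for 8 of the 9 genes. In the replicate 1 pair the fusion-titled library was lower at 7 of 9 genes, with a median difference of -0.64. In the replicate 2 pair it was higher at 6 of 9, with a median of 0.63, where the median of all tested probe sets was -0.00877. The shares of all genes in these directions were not computed. The 2 pairs disagree wherever the description difference is larger in size than the title difference. Over all tested probe sets the median size was 0.32 by description and 0.13 by title, so the disagreement is not read as particular to the members. Differences of at least 2-fold in the replicate 2 pair were reached by Lat at 1.30 and Plcg1 at 1.14, against 11.4% of all tested probe sets. The fusion-titled replicate 1 library held the lowest value at 4 of the 9 genes, Syk, Lcp2, Btk and Gab2, where 26.0% of all genes tested had their lowest value.

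**Figure D3:**
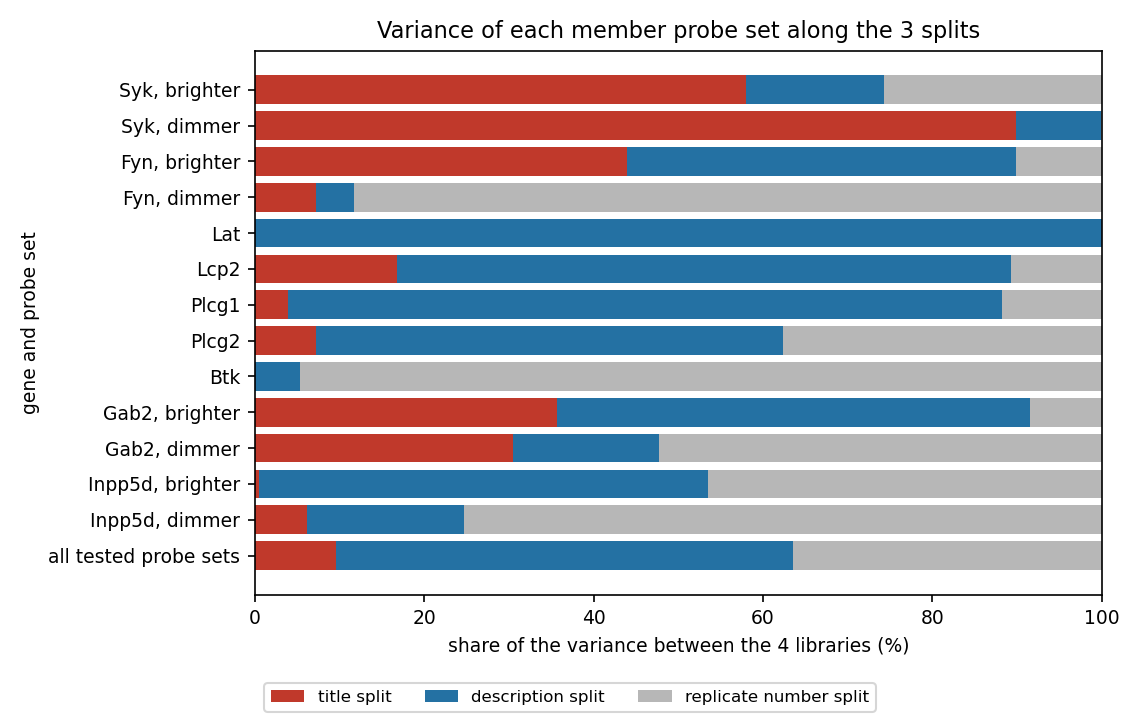
Share of the variance between the 4 libraries, in percent (horizontal axis), that lay along the title split, the description split and the replicate number split, for each member probe set that passed the filter and for all tested probe sets summed. Lat lies wholly along the description split, Btk almost wholly along the replicate number split, and the Syk probe sets mostly along the title split.

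The 3 splits of 4 libraries are orthogonal and account for all of the variance of a probe set. The description split was the largest for 7 of the 9 genes at their brightest probe set, the title split for Syk and the replicate number split for Btk. The 7 include Lat, which passed the filter only through the libraries described as fusion. Among the 13 member probe sets that passed the filter, the description split was the largest at 7, the title split at 2 and the replicate number split at 4. Over all tested probe sets the shares were 52.5%, 13.7% and 33.7%, so by probe set the members are near the background. The share over all genes at their brightest probe set was not computed. The description share was 72.5% for Lcp2 and 84.4% for Plcg1. The title share was 58.0% and 89.8% at the 2 tested Syk probe sets.

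Markers of other cell types also differed between the description groups, and limma called 0 of them. Of all genes tested 51.5% were higher by description. The mast cell and basophil list had higher means by description at all 6 tested markers (Cma1, Hdc, Gata2, Ms4a2, Fcer1a and Mitf, of which Ms4a2 and Fcer1a also stand among the receptors below), with a median difference of 2.87 and overlapping groups at Gata2. Fcer1a counts here although it passed the filter only through the libraries described as fusion. Cma1 read the floor value, 2.23, in the control-titled replicate 2 library. The median is therefore not a measured fold change. Its 12 measured markers summed to 13.8 and 12.71 (log2 of the summed linear values) in the libraries described as fusion and to 12.77 and 12.68 in those described as control, so the sums overlapped. Of the macrophage and monocyte markers 3 of 4 tested were higher, with a median of 0.76. Lyz2 differed by 2.53 (SE 1.09) and Adgre1 by -1.61 (SE 0.77), both without overlap, and the list summed to 9.23 and 9.54 against 8.33 and 9.73. Of the erythroid and megakaryocyte markers 2 of 3 tested were higher, with a median of 0.25. Epor differed by 0.90 (SE 0.44) and Klf1 by -2.37 (SE 0.56), both without overlap, and the list summed to 9.54 and 10.62 against 9.57 and 10.69. Both tested neutrophil markers, Mpo and Prtn3, were lower on average with overlapping groups, and that list summed to 6.13 and 6.72 against 6.08 and 8.78. The part of these markers in the differences of Lat, Lcp2 and Plcg1 was not tested, and in bulk RNA more cells of a type and more RNA per cell cannot be told apart.

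The rest of the pathway was described from 5 lists of other genes, of which 48 genes were tested. Limma called 0 of them at an adjusted p of 0.05 in either grouping. At an unadjusted p under 0.05 there were 1 by title and 10 by description, where 0.282% and 19.7% of all tested probe sets reached it. The 1 by title was Fcgr2b of the receptor list, lower in fusion without overlap (title difference -1.32, SE 0.44). By description Fcgr2b differed by -0.12 (SE 0.79). The 10 include Fcer1a, which passed the filter only through the libraries described as fusion. The count by description is near the 19.7%, but it is of genes at their brightest probe set, whereas that share is of probe sets. The share over all genes at their brightest probe set was not computed. By description 32 were higher and 16 lower, with a median of 0.29, against 51.5% of all genes tested and a median of 0.0124. Groups did not overlap at 47.9%, against 55.8% of all genes tested. By title 17 were higher and 31 lower, with a median of -0.0573, against 46.2% of all genes tested higher and a median of -0.0153. These shares of all genes are also the background for the counts of each list below.

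**Figure D4:**
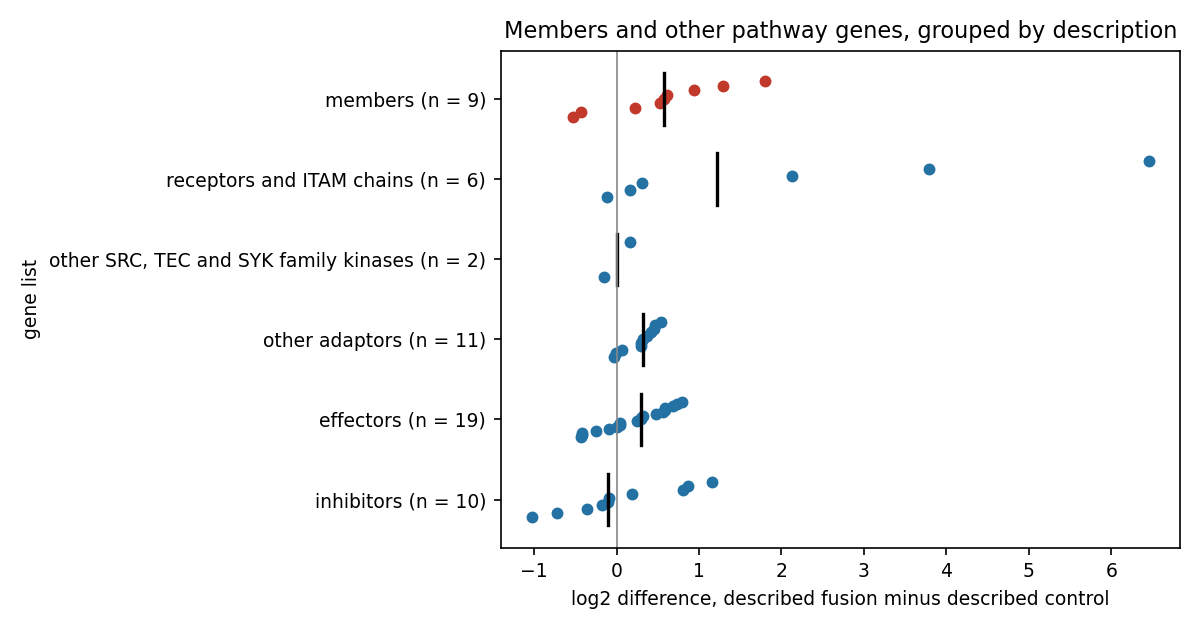
Log2 difference by description, fusion minus control (horizontal axis), of the members (red) and of the tested genes in 5 lists of other pathway genes (blue, vertical axis). Each point is 1 gene at its brightest tested probe set and black bars are list medians. Among the receptors 3 genes, Ms4a2, Fcgr3 and Fcer1a, lie at 2.13, 3.79 and 6.46, the last against floor values, and the highest of the adaptors and effectors, Stim1, lies at 0.79.

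Upstream, 5 of 6 tested receptor and activation motif chains were higher by description, with a median of 1.22, and all 6 were lower by title. Of all genes tested 51.5% were higher by description and 46.2% by title. Fcgr3, a low-affinity IgG receptor that signals through the same gamma chain, read 8.78 and 7.56 in the libraries described as fusion and 4.37 and 4.39 in those described as control (difference 3.79, SE 0.47, limma adjusted p = 0.13). Fcer1a, the alpha chain of the IgE receptor, read 9.91 and 7.69 in the libraries described as fusion and 2.37 and 2.32 in those described as control. The latter are floor values, so its difference of 6.46 is not a measured fold change. Fcer1a passed the filter only through the libraries described as fusion, and it counts in the list median. Ms4a2, the beta chain, differed by 2.13 (SE 0.88). This came mostly from the control-titled replicate 1 library, at 9.18. The fusion-titled replicate 2 library read 6.89, and those described as control read 5.59 and 6.22. Fcer1g, the shared gamma chain, differed by only 0.31, between 11.04 and 11.8 in all libraries. Of the other SRC, TEC and SYK family kinases only Tec and Csk, the kinase that inactivates SRC family members, passed the filter, and they differed by 0.16 (SE 0.22) and -0.15 (SE 0.27). Zap70, the paralogue of Syk in T cells, and Blk, Fgr, Src and Yes1 stood near the floor in every library.

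Beside the members, other adaptors were higher by description at 9 of 11 genes, with a median of 0.32. The largest non-overlapping differences were those of Shc1 at 0.54 (SE 0.30), Skap2 at 0.46 (SE 0.16), Dok3 at 0.41 (SE 0.27) and Pag1 at 0.29 (SE 0.16). Effectors were higher at 13 of 19, with a median of 0.29. Among them were the calcium store sensor Stim1 at 0.79 (SE 0.42) and the inositol trisphosphate receptor Itpr3 at 0.73 (SE 0.19). The RAS exchange factor Sos1 stood at 0.68 (SE 0.21) and protein kinase C delta, Prkcd, at 0.59 (SE 0.45). The differences of Dok3 and Prkcd came mostly from the control-titled replicate 1 library, at 9.08 and 8.66. The other libraries read 8.28 to 8.49 at Dok3 and 7.48 to 7.51 at Prkcd.

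Inhibitors were split, with 4 of 10 higher and 6 lower by description and a median of -0.10. Inpp4b, a phosphatase of the same lipid pathway as Inpp5d, differed by 1.16 (SE 0.28, limma adjusted p = 0.18). Dgkz, a diacylglycerol kinase that removes one of the messengers made by phospholipase C, differed by 0.87 (SE 0.14), and Ubash3b, a phosphatase that acts on Syk, by 0.81 (SE 0.21). Ptpn6 (SHP-1), the tyrosine phosphatase of inhibitory receptors, was lower, with 9.47 and 9.23 in the libraries described as fusion and 10.6 and 10.2 in those described as control (difference -1.03, SE 0.20, adjusted p = 0.16). None of the 4 passed, and by title each of them differed by at most 0.11 in size.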

How the data were processed

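The authors deposited log2 values for 45101 probe sets of a mouse 3' expression array. The submitters' processing notes name GCRMA 2.28.0 as the tool, and per the labels' protocols total RNA was labelled with biotin. The log2 scale was inferred from the range of 2.23 to 16.3. Filters and batch steps are unstated in the sources used here. GCRMA leaves many probe sets near a common lowest value, where differences are compressed. Arrays carry no read depth, and their number limits the precision.

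After removal of 64 control probe sets, a mean of at least 4 over the 4 libraries kept 17720. Groups of 2 libraries, by title and by description, entered limma 3.58.1 (R 4.3.3; lmFit, then eBayes with trend; two-sided), adjusted by Benjamini-Hochberg over all tested probe sets, with 2 residual degrees of freedom. The fit was tested on simulated data. Names came from the platform annotation, and the tested probe set with the highest mean stood for a gene. Alternatives were no filter, a filter at a mean of 6, no trend, quantile normalization, the replicate number as a block, each library left out and the median over the probe sets of a gene.

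The members and lists were chosen with earlier results of these data known. All member probe sets are named. From each other list up to 4 genes were named, those with the largest differences by description without overlap, or the 2 largest where fewer were found. Fcer1g, Fcgr2b, Zap70, Blk, Fgr, Src, Yes1 and the single cell type markers were named after their values were seen. List genes without a probe set of a single symbol were not analysed here.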

Additional observations from a re-analysis of the deposited data

How the results depend on the processing

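The counts of 0 member probe sets called, by title and by description, held in limma under every alternative run, and the adjusted p of the members' brightest probe sets ran from 0.0658 to 1 by description and from 0.983 to 1 by title. Over the whole array the 2 calls by description became 0 without the filter, 0 with the replicate block and 14 with quantile normalization, and 0 with any 1 library left out; the cause was not tested. The replicate block moved no member call, with 3 member probe sets at an unadjusted p under 0.05 by description in the fit without the block and 6 with it. Same-numbered libraries deviated together by description, at a correlation of 0.59, and oppositely by title, at -0.20, but nothing in the labels pairs them. With 2 libraries a group these correlations follow from the sizes of the 3 splits, so they are no separate evidence on pairing. The crossed pairing by title, chosen after seeing the data, called 0 probe sets.

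The median over the tested probe sets turned Inpp5d by title from 0.0582 to -0.0705. With 1 library left out, where the lone library of a group is assumed to vary like the others, the difference by title ran from -0.65 to 0.65 for Lat, from -2.12 to 0.38 for Lcp2, from -0.44 to 0.84 for Plcg1, from -0.67 to 0.29 for Plcg2, from -1.45 to 1.57 for Btk and from -0.54 to 0.65 for Inpp5d. By description it ran from -0.13 to 0.57 for Syk and from -0.68 to 1.82 for Btk, and without a change of direction from 1.29 to 1.30 for Lat, from 1.02 to 2.59 for Lcp2, from 0.66 to 1.21 for Plcg1, from -0.75 to -0.12 for Fyn, from 0.21 to 0.84 for Gab2, from -0.84 to -0.21 for Plcg2 and from 0.30 to 0.93 for Inpp5d. By title the direction also held for Syk, from -0.67 to -0.17, Fyn, from -0.74 to -0.11, and Gab2, from -0.79 to -0.0550.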
